A study of Homo sapiens with 80 samples.

Results

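The genes of the proteasome were followed in Jurkat T cells, a human T lymphocyte leukaemia line (clone E6-1), exposed to 9 g, to a centrifugation step at 300 g or to heat. Members were chosen by gene symbol and by level, as genes named PSMA, PSMB, PSMC, PSMD, PSME, PSMF or PSMG followed by a number with a mean of at least 20 raw counts over all 80 libraries. Of 60663 genes with a usable record, 48 carried such a symbol and 47 passed the level. The genes next to that level were PSMA8, an alpha subunit of germ cells, with a mean count of 69.5, and PSMB11, the beta subunit of the thymic cortex, with 0.188, which was left out. Of the 47 genes, 18 encode the 20S core (8 alpha and 10 beta subunits) and 20 the 19S regulatory particle (6 ATPases, 11 other subunits and 3 assembly chaperones). The other 9 are 5 activators or inhibitors of the core and 4 chaperones of its assembly.

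All groups came from the same cell line, grown in medium with serum and antibiotics, and libraries were made from RNA freed of ribosomal RNA without selecting for poly-A, which keeps nascent RNA in the measurement. In the 9 g experiment, cells were spun in pipettes, and each group is named by its exposure. The shortest were 20 s in hypg20s and 75 s in hypg75s, and the names hypg3, hypg5, hypg7, hypg9, hypg15 and hypg60 give the minutes. Of the controls, which were held in pipettes at 1 g, Ctrl lasted 15 min and Ctrl60 lasted 60 min, and every group has 6 libraries. In the other experiment, cells were spun at 300 g for 5 min and lysed 1 min (wait1min), 4 min (wait4min) or 15 min (wait15min) after the stop, or were kept at 42 °C (heat), and their control (Ctrl300) was lysed directly, with 4 libraries in each group. Nothing in the sample descriptions says that libraries of a group came from separate cultures, so the p-values measure the spread between these libraries, which may be technical.

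The proteasome degrades proteins that carry chains of ubiquitin. Its 20S core is a barrel of alpha rings around beta rings, in which PSMB5, PSMB6 and PSMB7 carry the active sites, and in immune cells PSMB8, PSMB9 and PSMB10 take their places to form the immunoproteasome, which favours peptides for antigen presentation. The 19S particle caps the barrel, where its PSMC ATPases unfold the substrate and its PSMD subunits bind and remove ubiquitin. The subunits are needed in fixed proportions, and the transcription factor NFE2L1 raises many of their genes together when the proteasome is inhibited.

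The deposited values are read pairs counted per gene. Total counts ran from 22634465 to 41893490 per library over the 79 libraries used. Library 75 of hypg15 was left out, because it has no counts on many chromosomes and 12 of the 47 genes were at 0 there while each of the other hypg15 libraries counted them. Library numbers run from 69 to 80 in hypg3 and hypg15 but from 1 to 48 elsewhere at 9 g, so that effects of either number range and of both time points cannot be told apart. In the count table the libraries of Ctrl60 are named as a control with HEPES, and a part of HEPES in hypg60 against Ctrl60 was not tested. That table also calls the wait1min libraries instant and the wait4min libraries 1min, so the waiting times, taken here from the sample descriptions, are uncertain. Of the 10 T cell and Jurkat markers examined, CD2 had the lowest median, at 76.6 CPM (the usual count scaled to library size), and LCK the highest, at 1250. Of 12 markers of other cells, 10 stayed at or below 0.668 CPM in every library, among them MS4A1 of B cells with a median of 0, while CD79A of B cells had 28.0 to 72.2 CPM and COL1A1 of fibroblasts 3.46 to 9.46 CPM. The share of counts from mitochondrial genes moved with treatment, from 1.49% ± 0.10 (SD, n = 6) in Ctrl to 1.99% ± 0.22 (n = 6) in hypg3, and from 1.29% ± 0.10 in Ctrl60 to 2.36% ± 0.25 in hypg60. It was 2.07% ± 0.04 (SD, n = 4) in Ctrl300, 2.43% ± 0.06 in wait1min and 2.39% ± 0.06 in heat. Its part in the results was not tested.

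The proteasome genes together took 0.768% ± 0.016 (SD, n = 6) of all counts in Ctrl and 0.774% ± 0.025 in Ctrl60. Levels between genes were compared as CPM per kilobase of exon (RPKM) in Ctrl, where the exon length joins all annotated transcripts and can understate a gene with long rare ones. Beta subunits stood highest as a class, with a median of 78.7 RPKM, led by PSMB3 (239 ± 20, SD, n = 6), PSMB7 (189 ± 13) and PSMB4 (161 ± 11). PSMB6 followed at 122, PSMB5 at 87.7, PSMB1 at 69.7 and PSMB2 at 66.2 RPKM, and the immunoproteasome subunits came last, with PSMB8 at 50.6, PSMB10 at 34.4 and PSMB9 at 22.2. Per kilobase, each active-site subunit lay above the immunoproteasome subunit that can take its place, PSMB5 above PSMB8, PSMB6 above PSMB9 and PSMB7 above PSMB10. Before division by exon length PSMB8 lay above PSMB5, at 176 against 136 CPM, with exon lengths of 3480 and 1549 bases. The other pairs kept their order in CPM.

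The alpha subunits had a median of 12.5 RPKM and spread most. PSMA7 reached 176 RPKM, PSMA5 30.7, PSMA4 16.5, PSMA3 13.4, PSMA1 11.7 and PSMA6 11.0, whereas PSMA8 stood at 1.08 and PSMA2 at 0.43. The value of PSMA2 is uncertain, since 17.2% of its exon bases also belong to a longer readthrough gene on the same strand (ENSG00000256646), and a read pair in shared exons is by the default of the counting program given to neither gene. The same holds for PSMA1, which shares 26.7% of its exon bases with such a gene, and for PSMB10, which shares 39.4%. Another 6 genes of the list share exon bases on the same strand, from 1.3% in PSMC2 to 14.9% in PSMD9.

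Among the ATPases PSMC3 stood at 182 RPKM, PSMC4 at 102, PSMC5 at 49.0, PSMC1 at 16.3, PSMC2 at 10.5 and PSMC6 at 4.26. Among the other 19S subunits PSMD2, a large scaffold subunit, stood at 138 RPKM, PSMD8 at 97.7, PSMD13 at 69.2, PSMD4, a ubiquitin receptor, at 64.6, PSMD3 at 58.3, PSMD11 at 40.4, PSMD7 at 38.5, PSMD1 at 13.1, PSMD14, the deubiquitinase, at 9.70, PSMD6 at 8.33 and PSMD12 at 6.69. The 19S assembly chaperones were low, PSMD10 at 13.8, PSMD5 at 7.31 and PSMD9 at 2.37. Of the activators, PSME1 stood at 168 RPKM and its partner PSME2 at 35.2, PSME3 of the nucleus at 58.7, PSME4 at 9.85, and the inhibitor PSMF1 at 20.4. The core chaperones PSMG3, PSMG1, PSMG2 and PSMG4 had 30.6, 25.4, 11.2 and 3.98 RPKM. The highest and lowest level differed 42.8-fold among the ATPases and 10.7-fold among the beta subunits.

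RefSeq promoter windows of GRCh38.p14, from 250 bases before to 50 bases after a start site, were given for 41 of the 47 genes, in 50 windows. They were searched on both strands for TGACNNNGC, the core of the antioxidant response element that NFE2L1 and related factors bind, and for CCAAT, the letters of the CCAAT box, and matches of the 2 motifs were counted apart. TGACNNNGC was present in 15 of the 50 windows (30.0%) and in 13.3% of all 35116 windows, and CCAAT in 38.0% and 34.6%. The windows of genes that were higher in wait1min than in Ctrl300 held TGACNNNGC in 6 of 18 cases and those of genes that were lower in 9 of 32, so that the motif was found in both directions of change. To show this, 30 bases around the match are given on the strand of the gene for the 3 genes with the largest rise and the 3 with the largest fall in wait1min among the 13 that hold a match before the start, with the match in capitals. These were picked by their change and serve as a description. The directions are those without an offset for GC content, and with that offset, described below, the 3 genes shown as rising were below 0.
PSMD12 (rose, chr17:67366723-67366752, minus strand): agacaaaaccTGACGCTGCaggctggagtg
PSME4 (rose, chr2:53971008-53971037, minus strand, match on the opposite strand): cccggcggctGCAGCGTCAccagcagagcc
PSMA4 (rose, chr15:78540650-78540679, plus strand): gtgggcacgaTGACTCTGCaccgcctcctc
PSME1 (fell, chr14:24136098-24136127, plus strand): atggcagggcTGACCCCGCctcctccatcc
PSMB9 (fell, chr6:32854034-32854063, plus strand, match on the opposite strand): gggcggggctGCCTCGTCActtgtctcggg
PSMB3 (fell, chr17:38752627-38752656, plus strand): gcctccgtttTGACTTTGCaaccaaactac

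Differences between groups were tested gene by gene with the quasi-likelihood test of edgeR over all genes that passed its filter on low counts, with only the groups compared in the model, and a gene was called at a Benjamini-Hochberg adjusted p under 0.05. All 47 genes passed the filter in each comparison. Fold changes are log2 values ± SE, and levels of a gene are TMM-normalized CPM, scaled within each experiment, so that Ctrl and Ctrl300 levels cannot be set against each other.

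**Figure D1:**
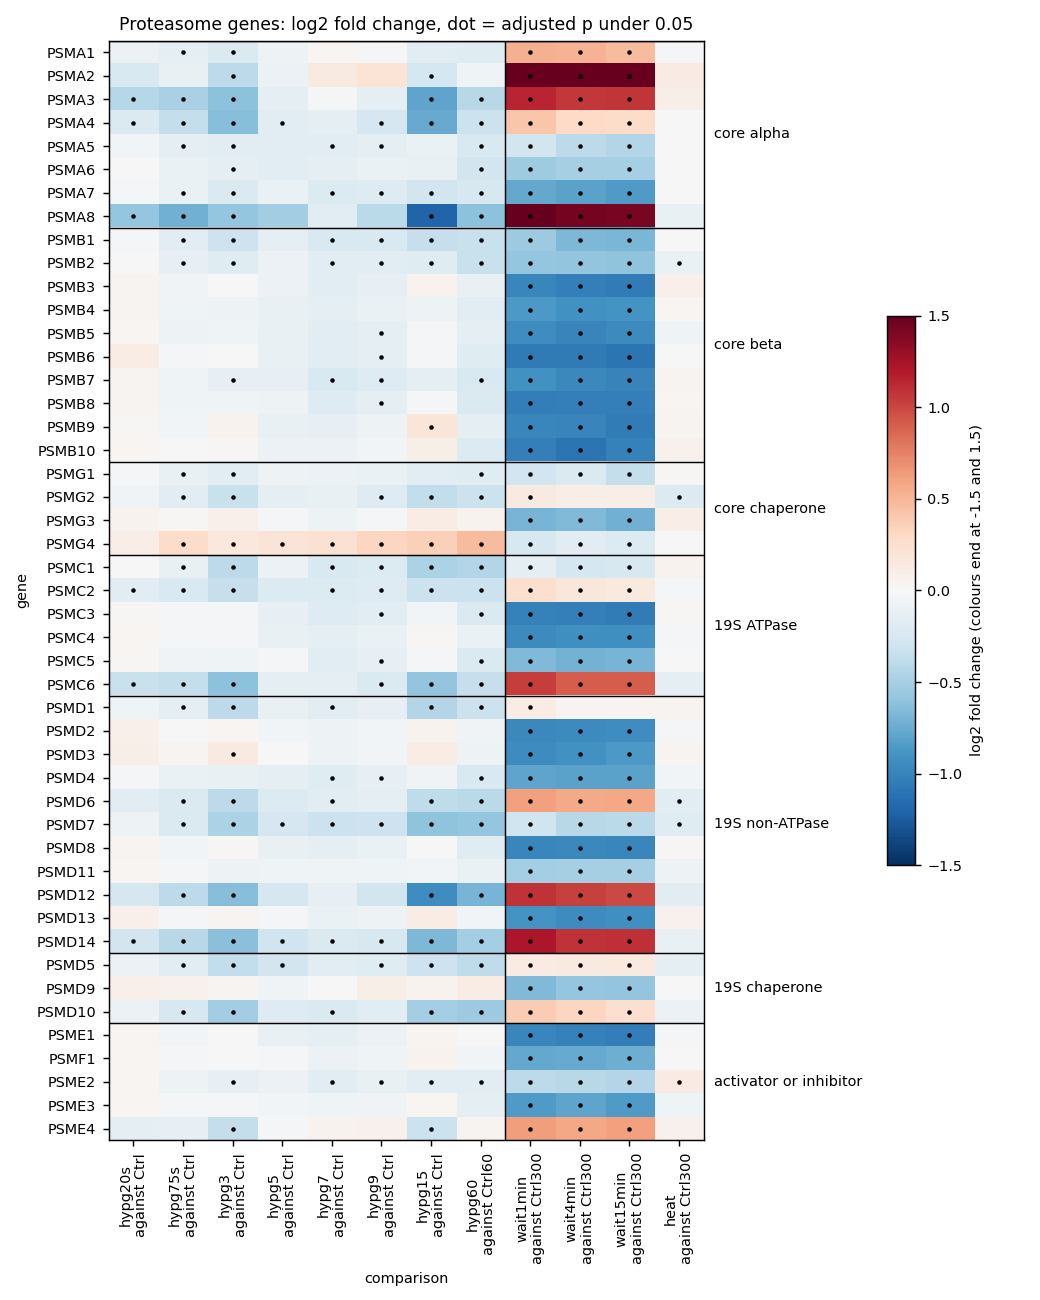
Log2 fold change of the 47 proteasome genes (rows, grouped by role) in the 12 comparisons of a treatment with its control (columns), with red for higher and blue for lower than the control and a dot where the adjusted p was under 0.05. At 300 g all 10 beta subunits are blue while PSMA2, PSMA8, PSMD14, PSMA3, PSMD12 and PSMC6 are deep red, and those last 6 are blue in hypg3.

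The 9 g time course asked which genes respond within seconds to an hour. In hypg20s, 6 of the 47 genes were lower and 0 higher than in Ctrl, against 8.58% and 6.66% of the 16137 genes tested in all, and DESeq2 also called 6 and 0. At an unadjusted p under 0.05, 12 of the 47 passed, against 5095 of the 16137 genes in all. The largest falls were those of PSMA8 (−0.58 ± 0.16, edgeR adjusted p = 0.026), PSMA3 (−0.43 ± 0.10, adjusted p = 0.014) and PSMC6 (−0.33 ± 0.06, adjusted p = 0.0026). PSMA8 and PSMA3 form alpha positions of the core and PSMC6 is an ATPase, while no beta subunit was called. With a GC offset, which removes a smooth trend of each library's counts over the GC content of the gene, none of the 6 calls was left, with PSMA8 at −0.28 (edgeR adjusted p = 0.18), PSMA3 at −0.11 (adjusted p = 0.2) and PSMC6 at −0.08 (adjusted p = 0.49).

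In hypg75s, 20 genes were lower and 1 higher, against 14.4% and 16.8% of all genes, and in hypg3 25 were lower and 2 higher, against 24.4% and 16.9%. All 8 alpha subunits fell in hypg3, with a median of −0.31, but only 3 of the 10 beta subunits, PSMB1, PSMB2 and PSMB7. With the GC offset only PSMA4 (−0.36) and PSMA7 (−0.32) of the alpha subunits stayed lower and none of these 3 beta subunits passed, while PSMB8 and PSMB10, not called without it, were lower by 0.15 (edgeR adjusted p = 0.029 and 0.026). PSMA5 and PSMA6 were at 0.24, PSMB1 at 0.02 and PSMB2 at 0.04. Of the 20 genes of the 19S particle 10 fell and PSMD3, a scaffold subunit, rose by 0.13 ± 0.04 (edgeR adjusted p = 0.017), a call that the GC offset ended (0.07, adjusted p = 0.22). The largest falls in hypg3 were those of PSMD12 (−0.64 ± 0.11, edgeR adjusted p = 0.00037), PSMA4 (−0.64 ± 0.06, adjusted p = 7.2e-06) and PSMD14 (−0.63 ± 0.07, adjusted p = 1.6e-05). The median over the 47 genes was −0.12 in hypg3 and that over all genes −0.02.

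The levels show how far these groups stood apart. PSMD14, the subunit that strips ubiquitin chains from the substrate (chr2:161308425-161411717, plus strand, GRCh38), had 65.6, 68.3 and 80.3 CPM as lowest, median and highest value in Ctrl and 41.3, 45.7 and 51.4 CPM in hypg3. The ranges did not overlap. In hypg75s its values were 50.1, 53.1 and 55.6 CPM and in hypg20s 50.4, 58.0 and 70.1 CPM, of which the latter overlapped with Ctrl. Its change was −0.27 ± 0.08 in hypg20s, −0.41 ± 0.05 in hypg75s, −0.30 ± 0.08 in hypg5, −0.22 ± 0.06 in hypg7, −0.24 ± 0.07 in hypg9 and −0.68 ± 0.09 in hypg15, and each passed the test, with adjusted p (edgeR) between 3.2e-05 in hypg15 and 0.042 in hypg5. These comparisons share the 6 libraries of Ctrl. PSMD14 is the gene lowest in GC of the 47, and with the GC offset it passed in none of these comparisons: its change was −0.21 in hypg3 (edgeR adjusted p = 0.29), −0.09 in hypg75s (adjusted p = 0.66), −0.16 in hypg5 (adjusted p = 0.34) and −0.02 in hypg15 (adjusted p = 0.92), and it turned to 0.10 in hypg20s (adjusted p = 0.58).

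Without an offset, fewer genes passed in hypg5, hypg7 and hypg9 than in hypg3. With the GC offset this did not hold throughout. In that fit 14 were lower in hypg3 (15.4% of all genes), 19 in hypg7 (14.0%) and 28 in hypg9 (19.0%). In hypg5, 4 genes were lower and 1 higher, against 1.69% and 4.33% of all genes, with PSMD14, PSMD5 (−0.27 ± 0.07), a 19S assembly chaperone, and PSMD7 (−0.25 ± 0.05), the partner of PSMD14 in the 19S lid, as the largest falls. With the GC offset PSMD5 was at −0.18 (edgeR adjusted p = 0.086), which no longer passed, and 11 of the 47 were lower (7.96% of all genes), while without the filter on low counts 1 was. In hypg7, 14 were lower and 1 higher, against 6.19% and 6.64%, led by PSMD7 (−0.32 ± 0.06, edgeR adjusted p = 0.003), PSMB1 (−0.23 ± 0.05) and PSMB7 (−0.23 ± 0.06). In hypg9, 20 were lower and 1 higher, against 8.34% and 11.3%, among them 6 of the 10 beta subunits and 5 of the 6 ATPases, led by PSMD7 (−0.31 ± 0.05), PSMA4 (−0.25 ± 0.06) and PSMD14. The alpha subunits that fell most in hypg3 were close to Ctrl in hypg7, where PSMA3 differed by −0.02 ± 0.12 and PSMA4 by −0.15 ± 0.06, neither called. In hypg7 the changes of the 47 genes were unrelated to GC content (Spearman's rho 0.07 across the 47 genes, which are not independent), unlike in hypg3 (rho 0.75).

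In hypg15, 20 genes were lower and 2 higher, against 27.9% and 25.4% of all genes. The largest falls were those of PSMA8 (−1.20 ± 0.23, edgeR adjusted p = 0.00047), PSMD12 (−0.93 ± 0.14, adjusted p = 9e-05) and PSMA3 (−0.79 ± 0.12, adjusted p = 0.00012). The 5 libraries of hypg15 had 11.2, 18.1, 19.7, 22.0 and 22.6 CPM of PSMD12, a lid subunit, all below the lowest Ctrl library at 32.4 CPM. PSMB9, an immunoproteasome subunit, rose by 0.19 ± 0.06 (adjusted p = 0.019), and with 3 surrogate variables it was at −0.03. With library 75 kept it was at −0.08, but PSMB9 is one of the 12 genes at 0 there. With that library 13 of the 47 genes were lower in place of 20. Between hypg15 and hypg3 no gene of the list was called by edgeR or DESeq2 (0.842% of all genes lower and 1.7% higher in hypg15). At an unadjusted p under 0.05, 2 of the 47 passed, against 2688 of 15915 genes in all.

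In hypg60 against Ctrl60, 25 genes were lower and 1 higher, against 13.0% and 17.1% of all genes. The median over the 47 genes was −0.21 and that over all genes −0.02. By role, 13 of the 20 genes of the 19S particle fell (median −0.27), 6 of 8 alpha subunits (−0.26), 3 of 10 beta subunits (−0.20), 1 of the 5 activators and inhibitors (−0.04) and 2 of the 4 core chaperones (−0.06). PSMD12 fell by 0.69 ± 0.16 (edgeR adjusted p = 0.0044), PSMA8 by 0.61 ± 0.20 (adjusted p = 0.03) and PSMD7 by 0.58 ± 0.08 (adjusted p = 0.00016). PSMD7 had 93.5, 109 and 116 CPM as lowest, median and highest value in Ctrl60 and 62.6, 67.6 and 89.2 CPM in hypg60, with no overlap. PSMD12 had 31.2, 36.2 and 43.3 CPM in Ctrl60 and 16.6, 20.4 and 35.9 CPM in hypg60, where 1 library reached into the control range. The 2 control groups did not differ in any of the 47 genes by edgeR or DESeq2 (0.00621% of all genes called in each direction), and the differences lay between −0.05 and 0.10. None of the 47 passed at an unadjusted p under 0.05, against 578 of 16109 genes in all.

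PSMG4, a chaperone of core assembly, went the other way at 9 g. Its levels had a lowest, median and highest value of 40.3, 40.9 and 43.0 CPM in Ctrl, 45.1, 49.6 and 53.7 CPM in hypg75s, 39.0, 42.2 and 45.0 CPM in Ctrl60 and 51.7, 57.5 and 66.4 CPM in hypg60. Every hypg75s and hypg60 library thus lay above all libraries of its control. The rise was 0.28 ± 0.05 in hypg75s (edgeR adjusted p = 0.00048), 0.16 ± 0.05 in hypg3 (adjusted p = 0.026), 0.19 ± 0.04 in hypg5 (adjusted p = 0.015), 0.23 ± 0.04 in hypg7 (adjusted p = 0.0051), 0.32 ± 0.04 in hypg9 (adjusted p = 0.00011), 0.36 ± 0.06 in hypg15 (adjusted p = 0.00011) and 0.48 ± 0.06 in hypg60 (adjusted p = 8.7e-05). In hypg20s it was 0.10 ± 0.04 (adjusted p = 0.1), and with the GC offset the change in hypg3 was 0.10 (adjusted p = 0.16), which no longer passed. With 3 surrogate variables as covariates, a fit described below, PSMG4 was not called higher in any of these comparisons. The other core chaperones did not rise: PSMG2 fell by 0.34 ± 0.06 in hypg3 (edgeR adjusted p = 0.00084) and by 0.32 ± 0.07 in hypg60 (adjusted p = 0.0033), and PSMG3 was not called at any time of 9 g.

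**Figure D2:**
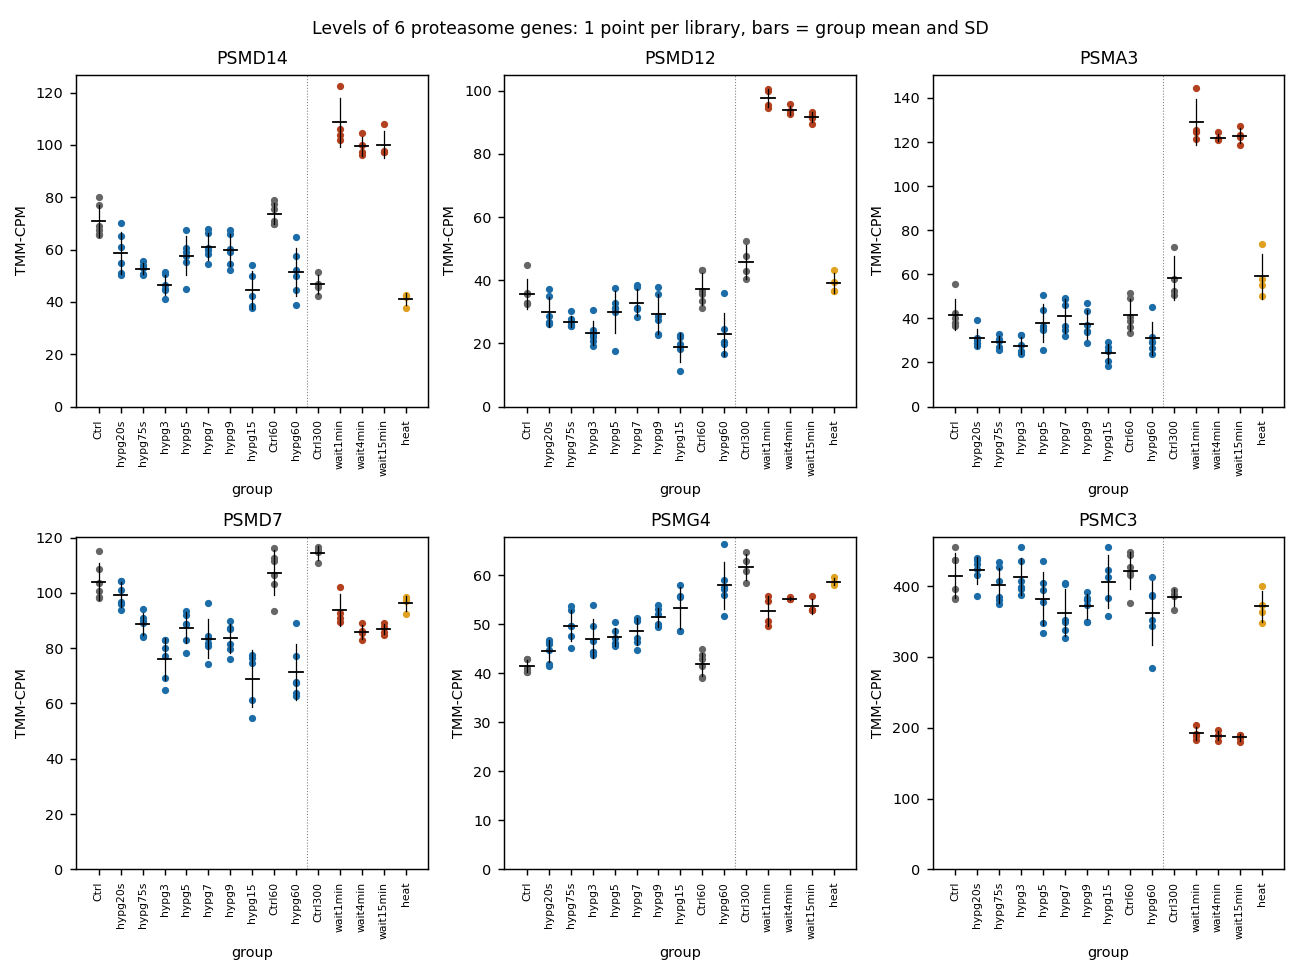
TMM-normalized CPM of PSMD14, PSMD12, PSMA3, PSMD7, PSMG4 and PSMC3 (y axes from 0) in each library (points) of the 15 groups (x axes), with group mean and SD as bars, controls in grey, 9 g in blue, 300 g in red and heat in yellow. PSMD14 is below Ctrl in hypg3 and above Ctrl300 in all 300 g libraries, where it has 96.3 to 123 CPM, while PSMC3 drops from 367 or more in Ctrl300 to 204 or less.

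Fewer genes were called lower at 9 g with 3 surrogate variables as covariates, which are fitted to spread that many genes share, except in hypg5. With them 2 genes were lower in hypg20s (4.41% of all genes in that fit), 6 in hypg75s (4.85%) and 9 in hypg3 (2.99%). In hypg5 5 were lower (2.49%), against 4 without them. The lower genes numbered 2 in hypg7 (2.29%), 1 in hypg9 (1.14%), 4 in hypg15 (0.647%) and 11 in hypg60 (5.76%). No gene of the list was called higher in this fit at any time of 9 g, PSMG4 included. Of all genes, between 0.39% in hypg15 and 6.19% in hypg60 were called higher. Of the 33 changes named in the 9 g comparisons 9 kept direction and call, 20 lost the call and 4 turned. In that fit PSMG4 was at −0.01 in hypg3 and PSMD12 at 0.01, so that both directions turned, and PSMA8 was at 0.03 in hypg60.

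At 300 g, the step used to pellet cells in routine culture, the question was whether it changes transcripts before lysis. The proteasome genes took 0.698% ± 0.004 (SD, n = 4) of all counts in Ctrl300 and 0.563% ± 0.015 in wait1min, 0.557% ± 0.002 in wait4min and 0.555% ± 0.006 in wait15min. The 4 Ctrl300 libraries, from 0.695% to 0.704%, lay above all 12 centrifuged ones, from 0.547% to 0.586%. In wait1min 32 of the 47 genes were lower and 15 higher, against 40.1% and 41.4% of the 17155 genes tested. In wait4min 32 were lower and 13 higher, against 40.6% and 41.7%, and in wait15min 32 and 13, against 40.5% and 41.8%. DESeq2 called 32 lower and 12 higher in each. The median over the 47 genes was −0.55 in wait1min, −0.58 in wait4min and −0.59 in wait15min, while the median over all genes was 0.01 in each. The 3 comparisons share the libraries of Ctrl300. Scaling by total counts alone set the median over all genes in wait1min at 0.25 and that over the 47 genes at −0.30 (−0.32 in wait4min and −0.33 in wait15min), and with it 27 of the 47 genes were lower and 16 higher (29 and 16 in wait4min, 30 and 15 in wait15min). Under that scaling the split was 13 lower and 1 higher in hypg7, 12 and 1 in hypg9, 24 and 1 in hypg60 and 4 and 3 in heat. Of all genes called under it, 62.0% were higher in wait1min and 63.0% in each of wait4min and wait15min. That share was 67.3% in hypg7, 73.6% in hypg9, 69.6% in hypg60 and 65.8% in heat. In a simulation on the depth of wait1min and Ctrl300, edgeR found 80% of genes changed 1.5-fold and 95% of genes changed 2-fold.

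All 10 beta subunits fell in wait1min, from −0.55 in PSMB1 to −1.06 in PSMB6, with a median of −0.95. PSMB6, an active-site subunit (chr17:4796144-4798502, plus strand, GRCh38), had 166, 170, 172 and 174 CPM in Ctrl300 and 78.9, 81.7, 82.6 and 86.2 CPM in wait1min. That is 2.08-fold lower (−1.06 ± 0.04, edgeR adjusted p = 7.9e-14), with no overlap. PSMB8 fell by 1.04 ± 0.03 (adjusted p = 1.7e-14) and PSMB10 by 1.02 ± 0.05 (adjusted p = 1.9e-12).

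Active-site subunits and their immunoproteasome counterparts both fell at 300 g. PSMB5 fell by 0.93 ± 0.05 in wait1min beside PSMB8, PSMB6 by 1.06 ± 0.04 beside 0.98 ± 0.05 in PSMB9, and PSMB7 by 0.91 ± 0.05 beside 1.02 ± 0.05 in PSMB10, all with edgeR adjusted p of 3.8e-11 or lower. Differences within these pairs were not tested. PSMB9 had 70.9, 73.8, 75.5 and 77.7 CPM in Ctrl300 and 34.8, 37.2, 38.4 and 41.6 CPM in wait1min, and PSMB10 went from 48.3, 48.5, 48.8 and 51.5 CPM to 22.7, 24.6, 24.8 and 25.7 CPM. No centrifuged library reached the range of the control in any of the 6 genes. In wait1min 40.1% of all genes tested were called lower and 41.4% higher. How many of all genes showed no overlap was not counted. At 9 g the changes of these 6 genes lay between −0.23 (PSMB7 in hypg7) and 0.19 (PSMB9 in hypg15), and most did not pass. In hypg9 PSMB5 fell by 0.13 ± 0.04, PSMB6 by 0.14 ± 0.04, PSMB7 by 0.19 ± 0.04 and PSMB8 by 0.15 ± 0.05, while PSMB9 differed by −0.08 ± 0.05 and PSMB10 by −0.04 ± 0.06.

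**Figure D3:**
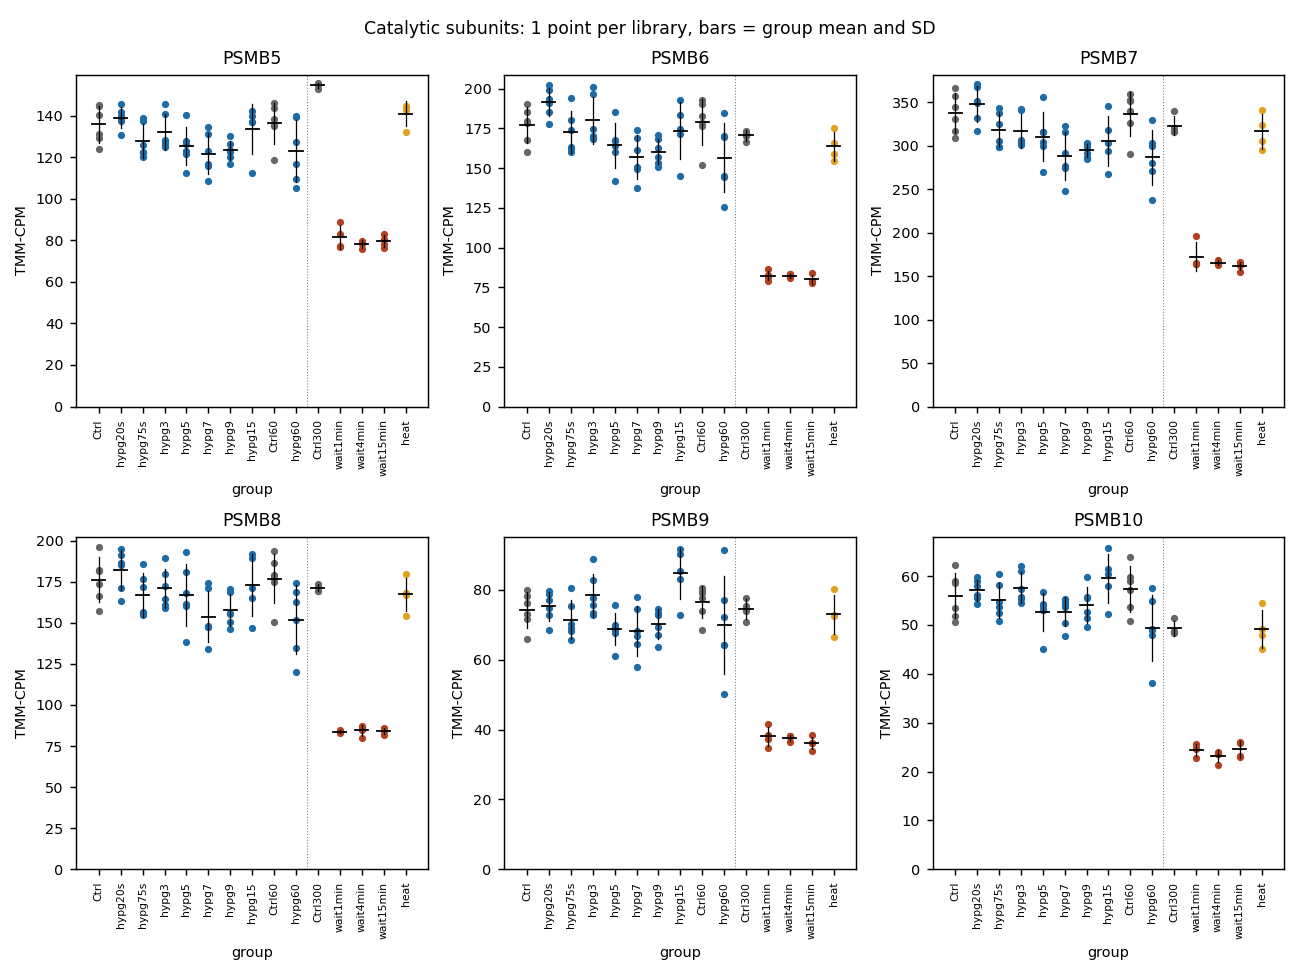
TMM-normalized CPM of the active-site subunits PSMB5, PSMB6 and PSMB7 (top) and their immunoproteasome counterparts PSMB8, PSMB9 and PSMB10 (bottom), y axes from 0, in each library (points) of the 15 groups (x axes), with group mean and SD as bars. In each gene the 12 libraries of 300 g lie below all Ctrl300 and heat libraries, as in PSMB8 with at most 87.2 CPM against 154 or more.

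The alpha subunits split at 300 g. PSMA2, PSMA8, PSMA3, PSMA1 and PSMA4 rose and PSMA5, PSMA6 and PSMA7 fell, and with the GC offset only PSMA2 and PSMA1 of the 5 stayed higher in wait1min, while PSMA4 turned from 0.41 to −0.40. In wait1min PSMA2 rose by 1.85 ± 0.10 (3.62-fold, edgeR adjusted p = 7.2e-12), from 2.79, 3.41, 3.69 and 4.00 CPM to 11.4, 12.7, 12.9 and 13.0 CPM, PSMA8 by 1.54 ± 0.11 (adjusted p = 6.9e-10) and PSMA3 by 1.14 ± 0.08 (adjusted p = 8.1e-10). PSMA3 is a regular subunit at a moderate level, with 50.8, 52.3, 57.7 and 72.6 CPM in Ctrl300 and 121, 125, 125 and 144 CPM in wait1min, whereas PSMA2 and PSMA8 rest on low counts. PSMA2 and PSMA1 also share 17.2% and 26.7% of their exon bases with other genes on the same strand, and the part of this in their rises was not tested. PSMA7, the most abundant alpha subunit per length, had changes between −0.85 and −0.77 over the waiting times.

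The 19S particle split as well, with 8 of 20 genes higher and 12 lower in wait1min, where 41.4% and 40.1% of all genes were called in these directions, so that the number of higher genes is close to the background. PSMD14 had 42.4, 45.8, 46.9 and 51.6 CPM in Ctrl300 and 102, 103.8, 106 and 123 CPM in wait1min, a rise of 1.21 ± 0.06 (2.32-fold, edgeR adjusted p = 6.7e-12). PSMD12 rose by 1.08 ± 0.06 (adjusted p = 1.5e-11) and the ATPase PSMC6 by 1.04 ± 0.06 (adjusted p = 1.9e-11). In the other direction the ATPase PSMC3 fell from 367, 386, 389 and 394 CPM to 183, 189, 191 and 204 CPM (−1.01 ± 0.04, adjusted p = 2.2e-13) and PSMD8, a lid subunit, by 0.98 ± 0.04 (adjusted p = 9.1e-13). Subunits of the same ring or lid thus lay on both sides, PSMC6 and PSMC2 up and the other 4 ATPases down. With the GC offset no gene of the 19S particle was called higher in wait1min, so that this split was not seen in that fit. The rises of PSMD14, PSMD12 and PSMC6 turned to falls, with values given further on.

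Outside core and 19S particle, PSME1 fell by 0.98 ± 0.04 in wait1min (edgeR adjusted p = 4.7e-13) and PSME2, which forms the interferon-inducible activator with it, had changes between −0.44 and −0.39 over the waiting times. PSME4 was higher by 0.59 to 0.62, and PSMG4 was lower by 0.24 ± 0.05 in wait1min (adjusted p = 0.00019), against its rise at 9 g. The 6 largest rises in wait4min and wait15min, which share their control with wait1min, were those of PSMA2, PSMA8, PSMD14, PSMA3, PSMD12 and PSMC6, at 1.86, 1.43, 1.09, 1.06, 1.03 and 0.90 in wait4min and 1.90, 1.42, 1.10, 1.07, 1.00 and 0.91 in wait15min. The largest falls in wait4min were those of PSMB10 (−1.09), PSMB6 (−1.06), PSMB3 (−1.03), PSMC3 (−1.03), PSMB8 (−1.02) and PSME1 (−1.01), and in wait15min those of PSMB6 (−1.09), PSMB9 (−1.05), PSMC3 (−1.05), PSMB3 (−1.04), PSME1 (−1.04) and PSMB8 (−1.03). SEs of these values were 0.12 or lower.

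The groups that differed in the time after the stop were compared directly. Between wait15min and wait1min 0 of the 47 genes were called by edgeR or DESeq2 (0.138% of all genes lower and 0.0115% higher), and the differences lay between −0.16 and 0.08. At an unadjusted p under 0.05, 10 of the 47 passed, against 2192 of 17446 genes in all.

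**Figure D4:**
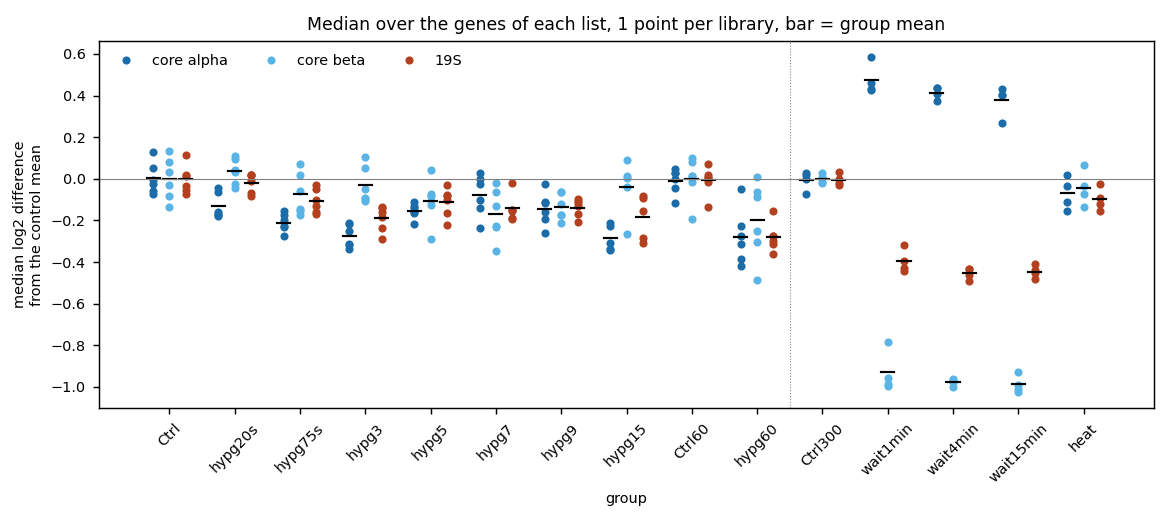
Median log2 difference from the control mean over the alpha subunits, the beta subunits and the 19S genes (colours), after adding 0.5 CPM, in each library (points) of the 15 groups (x axis), with the group mean as a bar. In the 300 g groups the alpha medians lie above 0 and the beta medians between −1.02 and −0.78, with the 19S medians between them, and at 9 g all 3 stay within 0.5 of the control.

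Core and regulatory particle were compared by their medians, as a description. At 300 g the core median was −0.67 and the 19S median −0.40 in wait1min, a difference of −0.27, and the differences in wait4min and wait15min were −0.28 and −0.31. Per library the difference was −0.28 ± 0.03 (SD, n = 4) in wait1min and 0.00 ± 0.01 in Ctrl300, so that the gap exceeded the spread between libraries. It moved with sequence composition and length: after the GC offset it was −0.11 in wait1min, and after the same offset over exon length it was −0.03. The core genes have a median exon length of 2634.5 bases and the 19S genes of 4956.5 bases. Without the chaperones PSMD5, PSMD9 and PSMD10 it was −0.16. At 9 g the difference of the medians lay between −0.01 in hypg9 and 0.08 in hypg3. Per library it was 0.08 ± 0.07 (SD, n = 6) in hypg3 and 0.05 ± 0.10 (SD, n = 6) in hypg60, and without the chaperones it turned to −0.04 in hypg3 and −0.08 in hypg15.

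The changes moved with the GC content of the genes in both experiments. Across the 47 genes, Spearman's rho between log2 fold change and GC content was −0.81 in wait1min and 0.56 in hypg60, and across all genes −0.69 (16918 genes) and 0.39 (16104 genes). The genes higher in wait1min had a median GC content of 40.7% and the lower ones of 51.1%, against 48.7% over all genes tested. After the GC offset 3 genes were higher (PSMA2, PSMA1 and PSMG2) and 42 lower in wait1min, where 30.7% and 44.5% of all genes were called in that fit, and PSMD14 turned from 1.21 to −0.81, PSMA3 from 1.14 to −0.46, PSMD12 from 1.08 to −0.39, PSMC6 from 1.04 to −0.32 PSME4 from 0.62 to −0.30 and PSMA8 from 1.54 to −0.05. The falls of the beta subunits stayed, with PSMB6 at −0.75, PSMB8 at −0.77, PSMB9 at −1.11 and PSMB10 at −0.55. In hypg3, 14 genes were lower with the offset in place of 25 (15.4% of all genes), and in hypg60 30 in place of 25 (25.7%). What links GC content to the changes was not tested.

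**Figure D5:**
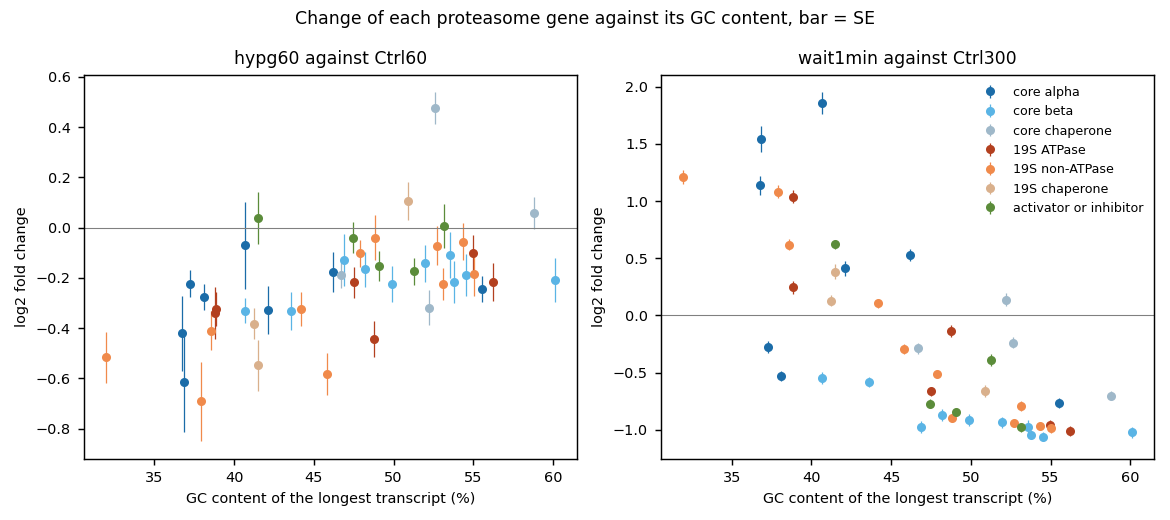
Log2 fold change (y axes, bars are SE) of each of the 47 proteasome genes against the GC content of its longest transcript in percent (x axes), in hypg60 against Ctrl60 (left) and wait1min against Ctrl300 (right), coloured by role. Genes low in GC lie lowest at left and highest at right, as PSMD14 with 32.0% GC, while the beta subunits, from 40.7% to 60.1% GC, lie below 0 at right.

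The lists of calls at 300 g and at 9 g can be compared, since they share no library. Of the 15 genes that rose in wait1min, 12 fell in hypg60 (80.0% of the 15 and 48.0% of the 25 that fell in hypg60) and 15 fell in hypg3 (60.0% of the 25 there). Of all genes tested in both comparisons and higher in wait1min, 16.2% fell in hypg60 and 44.2% in hypg3, and whether the proteasome genes differ from other genes of their GC content in this was not tested. Of the 32 that fell in wait1min, 13 fell in hypg60 (40.6% of the 32) and 10 in hypg3 (31.2%), against 12.9% and 12.0% of all genes that fell in wait1min. The 12 opposed genes were PSMA3, PSMA4, PSMA8, PSMC2, PSMC6, PSMD1, PSMD5, PSMD6, PSMD10, PSMD12, PSMD14 and PSMG2. These lists are those without an offset, and with the GC offset only PSMG2 of the 12 stayed higher in wait1min.

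In heat, 4 of the 47 were lower and 1 higher than in Ctrl300, against 10.2% and 10.6% of all genes, and the median over the 47 was 0.00. PSME2 rose by 0.12 ± 0.03 (edgeR adjusted p = 0.017), a call that was lost without library 52 of Ctrl300 (0.10, adjusted p = 0.07) and with the GC offset (0.06, adjusted p = 0.23). PSMG2 fell by 0.20 ± 0.05 (adjusted p = 0.014), PSMD7 by 0.18 ± 0.03 (adjusted p = 0.00066), PSMD6 by 0.17 ± 0.04 (adjusted p = 0.0056) and PSMB2 by 0.10 ± 0.03 (adjusted p = 0.017). PSMD7 had 111, 115, 116 and 117 CPM in Ctrl300 and 92.4, 96.9, 97.3 and 98.6 CPM in heat, with no overlap, whereas PSME2 had 119, 122, 124 and 128 CPM against 122, 124, 131 and 134 CPM, which overlap. As a check of the heat label, HSPA1B, which encodes an inducible chaperone of the HSP70 family, rose by 0.63 ± 0.06 (adjusted p = 2.4e-06) and DNAJB1, its cochaperone, by 0.17 ± 0.03 (adjusted p = 0.00096). These genes do not mark heat alone, since without heating HSPA1B rose by 2.69 ± 0.08 and DNAJB1 by 1.46 ± 0.05 in hypg60, and HSPA1B by 0.63 ± 0.09 in hypg15. HSPA1A, whose sequence is nearly that of HSPA1B so that reads of both are uncertain, was at 0.44 ± 0.28 (adjusted p = 0.3), and HSPH1, another heat shock gene, fell by 0.32 ± 0.06 (adjusted p = 0.0012). In one model of all groups of the experiment 14 genes were lower in heat, where the share over all genes was not counted. With the GC offset 13 were lower, against 21.3% of all genes in that fit.

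Heat and 300 g were set against each other directly. In heat 30 of the 47 genes were higher and 15 lower than in wait1min, against 39.1% and 42.0% of all genes. PSMB10 was higher by 0.99 ± 0.06 (edgeR adjusted p = 1.1e-11), PSMB8 by 0.98 ± 0.04 (adjusted p = 1.3e-13) and PSMB6 by 0.97 ± 0.04 (adjusted p = 1.6e-13), and PSMA2 was lower by 1.82 ± 0.09 (adjusted p = 6.1e-13), PSMA8 by 1.75 ± 0.14 (adjusted p = 9.7e-10) and PSMD14 by 1.42 ± 0.06 (adjusted p = 2.6e-14). PSMD14 had 37.7, 41.7, 42.3 and 42.8 CPM in heat, all below the lowest wait1min library at 102 CPM. With the GC offset PSMD14 turned to 0.65. In that fit 3 genes were lower in heat in place of 15 and 42 higher in place of 30, against 31.7% and 41.9% of all genes.

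Another 31 genes of the pathway, chosen for their role, were examined beside the subunits. In hypg3, 13 of them were lower and 4 higher, in hypg60 9 and 3, in wait1min 15 and 12, and in heat 7 and 3, with medians of −0.11, −0.08, −0.10 and 0.02. Of all genes, 24.4% were lower and 16.9% higher in hypg3, 13.0% and 17.1% in hypg60, 40.1% and 41.4% in wait1min and 10.2% and 10.6% in heat, and in wait1min the counts of the list lie near these shares. POMP, which matures the core, fell by 0.40 ± 0.07 in hypg3 (edgeR adjusted p = 0.00031) and by 0.43 ± 0.06 in hypg60 (adjusted p = 8.4e-05), and rose by 0.67 ± 0.08 in wait1min (adjusted p = 2.5e-07). UCHL5, a deubiquitinase of the 19S particle, fell by 0.79 ± 0.16 in hypg60 (adjusted p = 0.0023) and rose by 1.75 ± 0.06 in wait1min (adjusted p = 3.2e-14), while ADRM1, the ubiquitin receptor that binds it, fell by 1.09 ± 0.04 in wait1min (adjusted p = 2e-13). In wait1min the transcription factor gene NFE2L1 was lower by 0.60 ± 0.04 (adjusted p = 3.9e-11), NFE2L2, its relative of the oxidative stress response, was higher by 1.89 ± 0.05 (adjusted p = 2.2e-15), and DDI2, the protease that activates NFE2L1, was higher by 1.64 ± 0.04 (adjusted p = 1.7e-15). The polyubiquitin gene UBB fell by 1.12 ± 0.05 in wait1min (edgeR adjusted p = 1.2e-12). With the GC offset NFE2L2 (1.63), DDI2 (0.91), NFE2L1 (−0.27), ADRM1 (−0.59) and UBB (−0.95) kept their direction and call in wait1min, whereas POMP turned to −1.14 and UCHL5 was at −0.01 (edgeR adjusted p = 0.75). POMP then no longer passed in hypg3 (0.03, adjusted p = 0.9) or hypg60 (−0.09, adjusted p = 0.59).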

How the data were processed

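RNA of Jurkat cells was sequenced as paired-end, stranded libraries after ribosomal RNA depletion. The authors deposited raw counts per gene. Per the labels, reads were trimmed with Trim Galore 0.6.5 and aligned with STAR 2.7.3a, and counting used featureCounts 2.0.1, while the file header names featureCounts 2.0.3 with Ensembl 104 annotation of GRCh38, counting read pairs on the reverse strand. The broken record of 1 gene and library 75 were left out. Total counts were 22634465 to 41893490 per library.

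Groups of 2 were fitted with edgeR 4.0.16 in R 4.3.3 (TMM factors, filterByExpr with a minimum count of 10, quasi-likelihood test, Benjamini-Hochberg adjustment over all genes tested, threshold 0.05). Named were, among called genes, the 3 with the largest change per direction (6 at 300 g; all 5 in heat), and the pairs of PSMB5 to PSMB10. Other members and pathway genes given with a change were picked after their values were seen. The members and lists, other pathway genes and markers included, were chosen with earlier results of these data known. Alternatives were no filter, total counts only, RLE factors, a lowess offset (span 0.3) over GC content or exon length, DESeq2 1.42.0, 3 surrogate variables (sva 3.50.0), one model of all groups, library 75 kept, each replicate of groups under 6 left out, and the 19S particle without assembly chaperones. The test was checked on simulated counts. Library numbers are unique, so no samples were paired.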

Additional observations from a re-analysis of the deposited data

Results flagged for a closer look

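Among 240 groups of libraries tested for 1 value far from the others, 20 held one, where chance gives about 1 in 20 groups. In levels, the library apart was low for PSMB5 in heat (132 CPM) and hypg15 (113 CPM), PSMB10 in hypg5 (45.1 CPM) and wait4min (21.3 CPM) and PSMA2 in wait1min (11.4 CPM). It was high for PSMB7 in Ctrl300 (339.6 CPM) and wait1min (197 CPM), PSMB10 in Ctrl300 (51.5 CPM), PSMD12 in Ctrl (44.8 CPM), PSMD14 in wait15min (108 CPM), PSMA2 in heat (4.2 CPM) and PSMG4 in wait15min (55.9 CPM). PSMA3 had a high library in Ctrl (55.4 CPM), hypg20s (39.4 CPM), hypg60 (45.2 CPM) and wait4min (124 CPM). The median log2 difference of the core genes stood apart in 1 library of Ctrl60 (−0.17), wait1min (−0.56) and wait15min (−0.82), and that of the 19S genes in 1 library of hypg7 (−0.021). Library 54 of wait1min holds 3 of these values and library 3 of Ctrl, library 51 of Ctrl300 and library 59 of wait4min 2 each. Library 51 is a control of each 300 g comparison and of heat.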

How the results depend on the processing

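Of the counts of called members under another setting, 308 stayed within 1.5 times the reported count and 58 did not, and of the values of named genes 955 kept direction and call, 53 lost the call and 21 turned, of which 20 and 4 with 3 surrogate variables, where 9 stayed. Of the medians of lists, 159 stayed within the spread between libraries and 55 did not. The cause was not tested. Counts of lower members were, with the GC offset, 0 in hypg20s, 14 in hypg3, 11 in hypg5, 13 in heat and 3 in heat against wait1min, and with the exon length offset 13 in hypg75s and 12 in heat. With 3 surrogate variables they were 2 in hypg20s, 6 in hypg75s, 9 in hypg3, 2 in hypg7, 1 in hypg9, 4 in hypg15 and 11 in hypg60. One model of all groups gave 3 in hypg20s, 11 in hypg9 and 14 in heat, total counts 12 in hypg9, no filter 1 in hypg5 and 1 in wait15min against wait1min, DESeq2 7 in heat, and library 75 kept 13 in hypg15. Higher members at 300 g were 3 with the GC offset and 8 with the length offset at each waiting time. Leaving out 1 library gave 3 to 6 lower members in heat, 17 to 22 in hypg15 and 31 to 32 in wait1min, and 12 to 15 higher ones in wait1min. Higher members in hypg15 were 1 without library 76 or 80 and 5 without library 77, against 2, and in heat 0 without library 52 of Ctrl300 and 2 without library 66, against 1.

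Log2 fold changes turned with surrogate variables for PSMG4 (−0.010) and PSMD12 (0.0084) in hypg3, PSMB9 in hypg15 (−0.028) and PSMA8 in hypg60 (0.028), and with library 75 kept for PSMB9 in hypg15 (−0.08). With the GC offset PSMA8, PSMD14, PSMA3, PSMD12 and PSMC6 were at −0.053, −0.81, −0.46, −0.39 and −0.32 in wait1min, at −0.090, −0.83, −0.47, −0.38 and −0.40 in wait4min and at −0.11, −0.85, −0.46, −0.42 and −0.40 in wait15min, and PSMD14 was at 0.65 in heat against wait1min.

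The core median minus the 19S median, with the GC offset, was −0.035 in hypg20s, 0.0016 in hypg3, −0.11 in wait1min, −0.11 in wait4min, −0.145 in wait15min, 0.081 in heat and 0.157 in heat against wait1min. With the length offset, for this difference added after seeing the data, it was −0.019 in hypg15, −0.077 in hypg15 against hypg3, −0.026 in wait1min, −0.0079 in wait4min, −0.025 in wait15min, −0.014 in heat and −0.070 in heat against wait1min. Without assembly chaperones it was −0.04 in hypg3, −0.076 in hypg15, −0.16 in wait1min, −0.23 in wait4min, −0.26 in wait15min and 0.22 in heat against wait1min, and with library 75 kept 0.14 in hypg15. No paired analysis was possible because library numbers are not shared between groups. At the depth of hypg3 and Ctrl, 71.2% of simulated 1.5-fold changes were found.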
